A study of Xenopus tropicalis with 192 samples.

Results

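Isolated CpGs were defined as measured CpGs with no other measured CpG within 200 bp on the same chromosome. Of the 6717 CpGs of the targeted panel, 1049 met this rule, and the other 5668 fell into 1396 clusters with a median of 3 CpGs. The panel had been applied to webbing skin punched from the hindlimb of 187 adult Xenopus tropicalis frogs, and to 5 tadpoles taken whole. Targeted bisulfite sequencing gave each CpG a methylation fraction per frog, the share of reads at a CpG that escaped bisulfite conversion, from 0 (unmethylated) to 1. All frogs had a Nigerian background, and many carried transgenes or gene edits. The adults lived in 32 tanks, and each tank held a single strain, so tank and strain cannot be told apart where a strain had a single tank.

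The tests of age and the split of variance used all 187 adults, which had 23 strain names and 25 ages. Comparisons of single groups used the following frogs. Young adults were 19 frogs of strain NIGERIAN F8 at 269 days, 3 of Xtr.Tg(cryga:GFP)Grngr at 273 days and 9 of SUPERMAN F8 at 332 days, 31 frogs under 1 year in all. The oldest adults were 22 frogs of the transgenic line Xtr.Tg(eef1a1:GFP)Krieg at 3987 days, kept in tanks A133, A135, A137 and A139, and 5 frogs of the same line (the Krieg line) were sampled at 2523 days, all of them from tank C410. NXR 1111 frogs of 1507 days came from tanks B415 (9 frogs) and B417 (8 frogs). At 2878 days 6 frogs each were taken from Xtr.Et(CAGGS-SB10;cryga:RFP)Mead, Xtr.Et(eef1a1:GFP)psvbiMead and Xtr.Et(eef1a1:GFP)folMead, each in its own tank. Xtr.Tg(otx2:GFP)Kellr frogs were 1105 days old in tank B116 and 1532 days old in tank B301, with 7 in each. The remaining adults entered the tests of age, the split of variance and descriptions of single tanks and of frogs of 4 to 6 years. The youngest of them were 7 TYR frogs of 547 days, 9 of Xtr.Tg(CMV:Aequorin,GFP)NXR of 726 days, 13 of CMV MEM GFP of 841 days, 6 of OLIG2 F1 of 899 days and 6 of WT Superman of 937 days. A sox3 F0 frog of 1300 days, an Xtr.Tg(CMV:Aequorin,GFP)NXR frog of 1337 days (tank C310) and a tlx3 F0 frog of 1937 days were each alone in their tank. There were also 3 frogs of gtpbp2 F1 KO of 1693 days, and 6 of tubb2b GFP, 5 of them of 2059 days and 1 listed at 547 days. Older lines were Xtr.Et(eef1a1:GFP)cenMead (3 frogs, 2860 days), Xtr.Et(CAGGS-SB10;cryga:RFP)7M8FMead (5 frogs of tank A308, 3090 days), Xtr.Et(eef1a1:GFP)hbrMead (4 frogs, 3100 days) and Xtr.Et(eef1a1:GFP)johMead (6 frogs, 3188 days). The 5 frogs of tank A337 at 3301 days were of a line whose name ends in 8FMead, with CAGGS-SB10, cryga:RFP and CAGGS:GFP as its elements. Xtr.Tg(cryga:GFP)Grngr gave 3 frogs of tank A212 and 1 of tank A214 at 3583 days. The tadpoles were 3 Superman F9 WT animals of about 89 days and 2 ZBTB14 KO animals of about 177 days.

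Cytosine methylation at CpGs is copied onto the new DNA strand after replication by a maintenance methyltransferase, and in vertebrates most CpGs outside CpG islands carry it. In human and mouse cells, CpGs with no close neighbour and with A or T on both sides are known to be copied less completely and to lose methylation as cells divide. The panel's probes were designed on CpGs that an earlier genome-wide study had linked to age, so the measured CpGs are not a random sample of the genome.

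Libraries were sequenced on 2 lanes, with 96 adults on lane 1 and 91 on lane 2. Lane 2 held every adult under 1 year and lane 1 every adult of 3987 days, so the extremes of age are confounded with lane and cannot be told apart from it. The mean CpG depth of a frog ran from 260 to 1103 reads. Comparing all 18336 frog pairs, 0 were duplicates of each other.

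The probe sequences showed the surroundings of isolated CpGs. Sequences of 1980 probes were read here, and they covered 559 isolated and 2574 other CpGs. In the first sequence listed for each isolated CpG, the measured CG was the only CG of the 120 bases in 467 of 559 (83.5%), against 76 of 2574 (2.95%) for other CpGs. The median GC content of these probes was 33.3% for isolated and 39.2% for other CpGs. The remaining 92 isolated CpGs had at least 1 further CG in the probe that was not among the measured CpGs within 200 bp, so isolation here is isolation among measured CpGs. Nearly all isolated CpGs lay at the centre of a probe, 409 of the 416 tested with a listed probe (98.3%), against 672 of 2373 other CpGs (28.3%). Whether the central CpG was the one a probe was designed for was not checked.

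The sequences below belong to the isolated CpGs with the strongest falls and rises with age that listed probes covered, and they are shown because most hold no second CG. Capitals mark the measured CpG. Coordinates are for the v10.0 genome.
CpG in megf11, chr3:116897570-116897689: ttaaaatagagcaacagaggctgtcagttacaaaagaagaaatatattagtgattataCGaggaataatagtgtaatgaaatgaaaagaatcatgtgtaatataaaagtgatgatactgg
CpG in mettl25, chr3:53115488-53115607: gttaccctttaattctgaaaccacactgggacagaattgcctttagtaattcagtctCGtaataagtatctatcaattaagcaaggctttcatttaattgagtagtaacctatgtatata
CpG in LOC108645172, chr1:33264137-33264256: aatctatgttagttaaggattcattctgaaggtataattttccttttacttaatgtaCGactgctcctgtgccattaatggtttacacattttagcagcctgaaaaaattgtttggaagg
CpG in gli1, chr2:140364958-140365077: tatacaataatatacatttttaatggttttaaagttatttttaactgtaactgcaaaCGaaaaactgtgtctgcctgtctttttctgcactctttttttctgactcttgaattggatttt
CpG nearest to LOC108645172, chr1:33180470-33180589: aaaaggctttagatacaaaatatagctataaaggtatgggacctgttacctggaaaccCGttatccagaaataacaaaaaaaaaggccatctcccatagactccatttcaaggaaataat
CpG in cop1, chr4:98635845-98635964: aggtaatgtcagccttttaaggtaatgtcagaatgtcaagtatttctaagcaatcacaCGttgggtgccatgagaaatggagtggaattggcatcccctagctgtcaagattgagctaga
CpG near smad6, chr3:117316732-117316851: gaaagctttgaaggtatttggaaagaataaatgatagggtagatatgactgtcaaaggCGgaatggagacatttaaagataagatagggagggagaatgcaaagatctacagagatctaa
CpG in LOC100489443, chr1:213089146-213089265: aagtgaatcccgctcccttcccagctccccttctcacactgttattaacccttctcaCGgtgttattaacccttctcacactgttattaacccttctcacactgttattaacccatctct
The first 7 hold a single CG, whereas the probe in LOC100489443 holds 2 and is built from a short repeated stretch.

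Isolated CpGs were spread over all 10 chromosomes, from 16 on chromosome 10 to 232 on chromosome 1. Their distance to the nearest measured CpG ran from 202 to 6560519 bp with a median of 167567 bp. Of the 1049 isolated CpGs, 521 (49.7%) lay inside an annotated RefSeq gene, against 2012 of 5668 other CpGs (35.5%). A single stretch of chromosome 1, between 32 and 34 Mb, held 1191 of the other CpGs and 54 of the isolated CpGs. The shares inside genes without that stretch were not counted. Exons, introns and untranslated regions were not resolved, because only gene spans were used. Among the CpGs nearest to the limit, those just outside it lay 177 and 176 bp from a neighbour and those just inside it 202, 211, 218 and 222 bp. The 2 with the shortest distances inside, on chromosome 8 at position 74592355 and on chromosome 10 at position 1456, had median fractions of 0.869 and 0.620. On the other side, a CpG in kif24 (chromosome 1, position 211303603, 177 bp from its neighbour) had a median of 0.949.

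The 3 isolated CpGs farthest from any other measured CpG lay on chromosome 4 at position 147415734, on chromosome 10 at position 52416842 and on chromosome 9 at position 85842498. The first, with c3orf67 as its nearest gene 143836 bp away, ran from 0.404 to 0.907 over the adults with a median of 0.824. The second lay 54 bp from the annotated rRNA gene LOC116408157 and ran from 0.657 to 0.969 with a median of 0.853. Ribosomal RNA genes occur in many near-identical copies, so its reads may come from several copies. The third, nearest to LOC101730497, ran from 0.807 to 0.981 with a median of 0.920.

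Some isolated CpGs showed separate levels among frogs, the pattern that the study ascribed to inherited base changes, and a Gaussian mixture filter was applied to take such CpGs out. It removed 211 of 1049 isolated CpGs (20.1%) and 331 of 5668 others (5.84%). Counting only the middle CpG of each cluster, 99 of 1396 (7.09%) were removed. The removed isolated CpGs had a median range of 0.796 between the lowest and the highest tank mean, and at 126 of them at least 1 tank had a mean under 0.1 and another a mean over 0.7. All later results concern the 838 isolated and 5337 other CpGs that remained.

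Isolated CpGs were less methylated than the others. The median over CpGs of the adult median was 0.827 for isolated CpGs (quartiles 0.673 and 0.904) and 0.911 for other CpGs (quartiles 0.822 and 0.943). Levels under 0.5 were found at 95 isolated CpGs (11.3%) and 271 others (5.08%), and levels from 0.5 to 0.8 at 255 (30.4%) and 921 (17.3%). Levels of 0.95 or more were found at 38 isolated CpGs (4.53%) and at 971 others (18.2%). Averaged over isolated CpGs, the adult mean fraction was 0.757 ± 0.0208 (SD over 187 adults), with 0.681 in the lowest frog and 0.791 in the highest. The skin punches hold several cell types, and a change in their mix cannot be told apart from a change within cells.

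**Figure D1:**
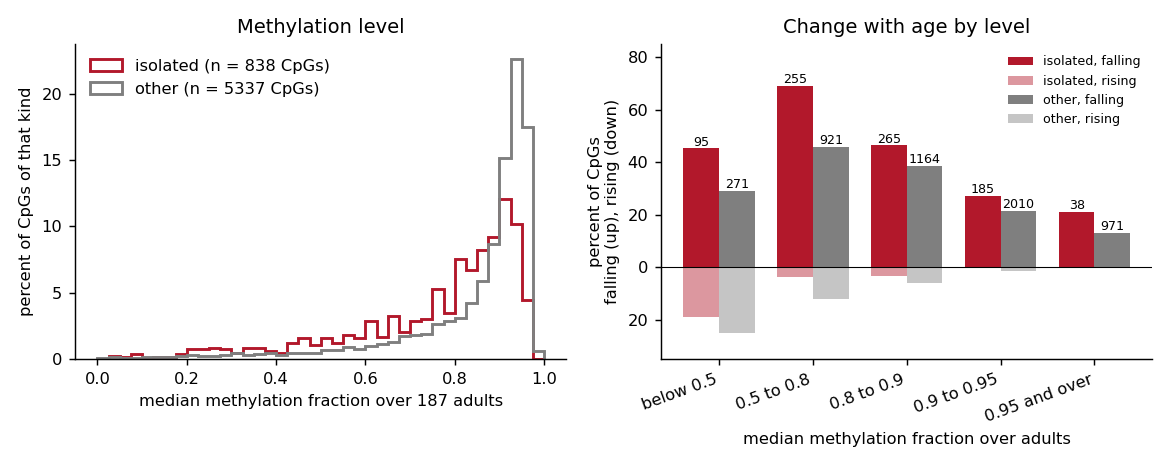
Left, the distribution of the median methylation fraction over 187 adults for isolated (red) and other (grey) CpGs, in percent of CpGs of each kind; the isolated CpGs reach farther to the left. Right, the percent of CpGs falling (above 0) or rising (below 0) with age at each level, with the number of CpGs above the bars; at levels from 0.5 to 0.8, 69.0% of isolated and 45.9% of other CpGs fell.

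Methylation fell with age at 400 of 838 isolated CpGs (47.7%) and rose at 37 (4.42%). Over all CpGs tested, 30.9% fell and 5.18% rose by the same test, Spearman correlation over 187 adults with Benjamini-Hochberg adjustment over 6175 CpGs and an adjusted p under 0.001. Counting only the middle CpG of each cluster of other CpGs, 433 of 1297 tested fell (33.4%) and 75 rose (5.78%). The 400 include CpGs at which frogs lay at separate levels or far apart within a tank, as described below. They are the CpGs near LOC116410436 (correlation -0.64), in nlgn1 (-0.54), near tmem38b (-0.40) and in negr1 (-0.29). The 37 include such a CpG in LOC100489443. Further cases among the falling and rising CpGs were not counted. The median Spearman correlation was -0.25 over isolated CpGs and -0.15 over the others. From the 31 young adults to the 22 oldest, the mean fraction of the falling isolated CpGs changed by a median of -0.0426. Over falling CpGs of all kinds the median change was -0.0323. A fall of more than 0.1 was seen at 72 of the falling isolated CpGs, 8.59% of isolated CpGs, against 5.62% of all CpGs. The rising isolated CpGs gained a median of 0.0768, against 0.0716 for rising CpGs of all kinds. Of the 838 isolated CpGs, 14 were rising and gained more than 0.1, against 114 of all 6175.

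Tank mates have the same age and strain, so that frogs are not independent samples of an age. Over the 32 tank means, 13 isolated CpGs fell (1.55%, against 0.696% of all CpGs) and 2 rose (0.239%, against 0.308% of all CpGs). The 2 were the CpGs in cop1 and near smad6. With tank as a random effect in limma, 98 isolated CpGs fell at the same threshold (11.7%, against 7.45% of all CpGs) and 10 rose (1.19%, against 1.55%). That fit used a single correlation between tank mates, 0.305, for all CpGs. Estimated for each CpG on the log2 logit scale without age removed, this correlation had a median of 0.343 at isolated and 0.308 at other CpGs. The random effect may therefore correct too little at some CpGs. Lane 1 alone gave 82 falling isolated CpGs (9.79%), close to the 8.89% of all CpGs, and 12 rising (1.43%, against 2.61% of all). Lane 2 alone gave 256 falling (30.5%, against 16.5% of all) and 27 rising (3.22%, against 2.87%). The larger share of falling isolated CpGs was therefore seen on lane 2 and hardly on lane 1, and the difference between lanes was not tested.

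Part of the fall was shared by CpGs of all kinds. After each frog's median log2 logit over the other CpGs was subtracted, an alternative chosen after the data were seen, 228 isolated CpGs fell (27.2%, all CpGs 15.2%) and 68 rose (8.11%, all CpGs 11.8%). Falls thus outnumbered rises among isolated CpGs before and after centring. Over all CpGs, isolated ones included, 940 fell and 730 rose after centring. Centring gives every frog the same median over the other CpGs, and their median correlation with age was then 0.0046. The balance of falls and rises among the other CpGs is therefore largely set by the centring.

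The excess over the other CpGs was not spread evenly over methylation levels. At levels from 0.5 to 0.8, 176 of 255 isolated CpGs fell (69.0%) and 10 rose (3.92%), against 423 (45.9%) and 113 (12.3%) of 921 others. At levels under 0.5, 43 of 95 isolated CpGs fell (45.3%) and 18 rose (18.9%), against 29.2% and 25.1% of 271 others. From 0.9 to 0.95 the shares falling were 27.0% of 185 and 21.4% of 2010. Position in the probe moved with isolation as well. Among CpGs at the centre of a listed probe, 215 of 409 isolated CpGs fell (52.6%) and 264 of 672 others (39.3%). At a level from 0.5 to 0.8 these central CpGs fell at 71.9% of 146 isolated and 54.6% of 174 other sites. From 0.8 to 0.9 the shares were 47.8% of 138 and 50.0% of 188, and from 0.9 upward 25.0% of 84 and 21.1% of 256. Below a level of 0.8 the shares of isolated and other central CpGs lay farther apart than above it, and these shares were not tested against each other.

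With growing distance to the nearest measured CpG the share falling rose from 21.4% (1 to 10 bp, 2271 CpGs) to 31.8% (11 to 50 bp) and 41.4% (51 to 200 bp). It was 59.2% of 49 isolated CpGs up to 1000 bp from a neighbour and 59.4% of 64 between 1000 and 10000 bp. At greater distances it stayed between 45.7% and 46.5%. The median level changed along with distance. From the shortest to the longest distances it was 0.931, 0.897, 0.799, 0.761, 0.783, 0.825, 0.837 and 0.824. The parts of distance and level in the share falling were not tested. Chromosome 1 between 32 and 34 Mb was captured densely, and its isolated CpGs lay at a median of 1302 bp from the nearest measured CpG. It held 1245 measured CpGs, 54 of them isolated, and 32 of the 47 that passed the filter fell with age (68.1%) while 0 rose. Of its other CpGs 383 of 1141 fell (33.6%). This stretch was singled out after its values were seen. Without it, 368 of 791 isolated CpGs fell (46.5%) and 29.9% of all CpGs.

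**Figure D2:**
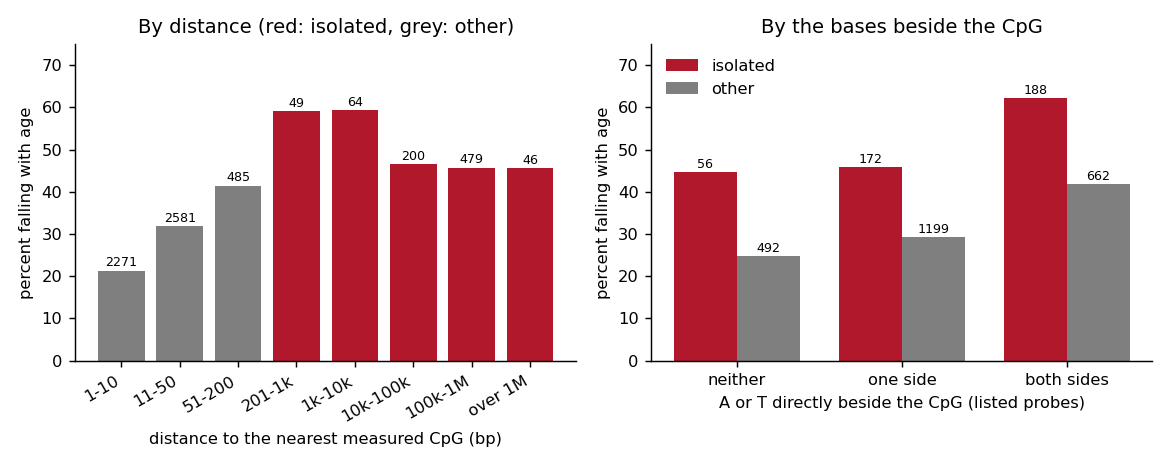
Percent of CpGs falling with age, by distance to the nearest measured CpG (left, isolated CpGs in red) and by A or T directly beside the CpG in the listed probes (right); numbers above the bars count CpGs. Isolated CpGs with A or T on both sides fell at 62.2% and those with neither at 44.6%, and their median levels were 0.765 and 0.867.

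The bases directly beside the CpG were read from the listed probes. A CG with A or T directly before it and A or T directly after it belongs to the same class when read on the other strand. Such CGs occurred at 188 of 416 isolated CpGs with a listed probe (45.2%), at 662 of 2353 others (28.1%) and at 30.7% of both kinds together. Of the 188, 117 fell with age (62.2%), against 79 of 172 with A or T on a single side (45.9%) and 25 of 56 with C or G on both sides (44.6%). Their median level was 0.765, lower than the 0.847 and 0.867 of the other classes. At levels under 0.5 the shares falling were 67.9% of 28, 30.0% of 10 and 33.3% of 3. Within levels from 0.5 to 0.8 they were 79.3% of 82, 60.0% of 50 and 73.3% of 15. Within levels from 0.8 to 0.9 they were 50.9% of 55, 46.4% of 69 and 50.0% of 16, and from 0.9 upward 21.7% of 23, 32.6% of 43 and 22.7% of 22. Isolated CpGs with A or T on both sides thus had a slightly higher share than the other classes from 0.8 to 0.9, and the lowest from 0.9 upward. Other CpGs gave 41.8%, 29.2% and 24.8% over all levels. Their shares were 50.0%, 34.1% and 29.4% under 0.5, and 58.6%, 41.6% and 40.4% from 0.5 to 0.8. From 0.8 to 0.9 they were 45.3%, 47.9% and 44.3%, and from 0.9 upward 24.1%, 18.7% and 17.7%. These are descriptions of the probes listed here, which cover only part of the panel, and they were not tested.

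The 5 isolated CpGs with the most negative correlation had negative correlations within both lanes and over tank means. Over tank means the Spearman adjusted p was 1.84e-05 in megf11, 0.000447 in mettl25 and 0.000156 in gli1. It was 1.08e-05 in LOC108645172 and 0.000771 at the CpG nearest to that gene. The smaller adjusted p-values given below for Spearman correlations over frogs count tank mates as independent. The CpG in megf11, which encodes a membrane protein with repeated EGF-like domains, lay on chromosome 3 at position 116897629. The 31 young adults ran from 0.691 to 0.901 with a median of 0.852, and the 22 oldest from 0.593 to 0.771 with a median of 0.735. The Spearman correlation was -0.73 (adjusted p = 6.30e-30), with -0.81 over tank means, and the young and oldest frogs overlapped between 0.691 and 0.771. The CpG in mettl25, a methyltransferase-like gene (chromosome 3, position 53115546), ran from 0.577 to 0.677 in young adults (median 0.622) and from 0.288 to 0.485 in the oldest (median 0.397), with no overlap. Its correlation was -0.73 (adjusted p = 7.82e-30), and most of the fall lay before the frogs of 4 to 6 years, whose mean was 0.432 ± 0.0680 (SD, n = 33). The CpG in gli1, a transcription factor of Hedgehog signalling (chromosome 2, position 140365016), had medians of 0.617 in young adults (0.523 to 0.698) and 0.497 in the oldest (0.401 to 0.618), with overlapping ranges and a correlation of -0.71 (adjusted p = 1.04e-27).

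Both other CpGs of the 5 lay in the dense stretch of chromosome 1. The CpG at position 33264195, inside the long noncoding RNA gene LOC108645172, had a median of 0.772 in young adults (0.725 to 0.797) and 0.605 in the oldest (0.523 to 0.734), with a correlation of -0.72 (adjusted p = 3.59e-28). The CpG at position 33180529, 78526 bp from the same gene, ran from 0.705 to 0.837 in young adults (median 0.793) and from 0.309 to 0.639 in the oldest (median 0.434). The young and the oldest frogs did not overlap there, and the correlation was -0.69 (adjusted p = 2.58e-25). Within the Krieg line its log2 logit differed by -0.74 between 2523 and 3987 days (limma SE 0.18, adjusted p = 0.0121), a call lost with tank as a random effect (-0.73, SE 0.22, limma adjusted p = 0.0704). The limma adjusted p between these ages was 0.471 in megf11, 0.495 in mettl25, 0.495 in gli1 and 0.757 at position 33264195. In mettl25 the mean was 0.344 at 2523 and 0.389 at 3987 days. All of the oldest frogs were of the Krieg line, so at these CpGs line and age cannot be told apart between young and oldest frogs.

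**Figure D3:**
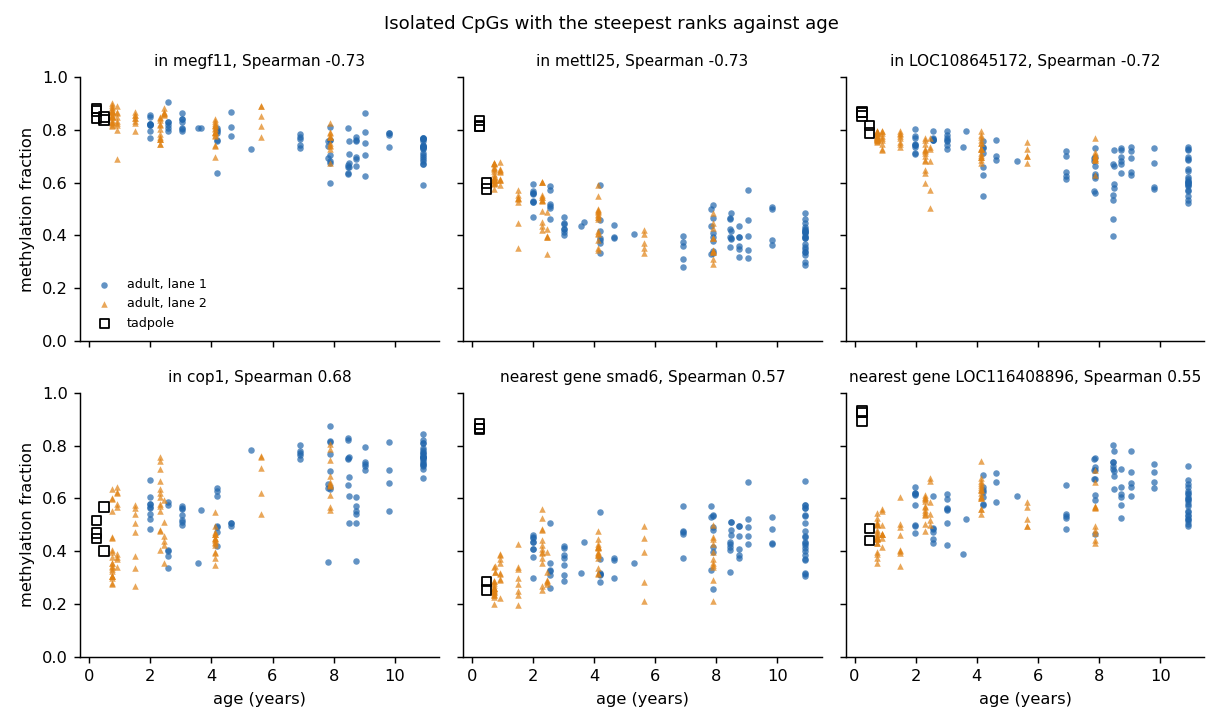
Methylation fraction against age in years for the 3 isolated CpGs with the most negative (top) and the 3 with the most positive (bottom) Spearman correlation with age; circles are adults of lane 1, triangles adults of lane 2 and open squares tadpoles. The 3 tadpoles of 89 days stand above all adults at the CpG near smad6 (0.863 to 0.883), while the 2 of 177 days lie at 0.253 and 0.285.

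The strongest rise was at the CpG in cop1, which encodes a ubiquitin ligase (chromosome 4, position 98635904). Young adults ran from 0.276 to 0.642 with a median of 0.376, and the oldest from 0.677 to 0.845 with a median of 0.757. The groups did not overlap, and the correlation was 0.68 (adjusted p = 7.26e-24), with 0.71 over tank means (adjusted p = 0.000595). Within the Krieg line its mean was 0.774 at 2523 and 0.761 at 3987 days (limma adjusted p = 0.924). In Xtr.Tg(otx2:GFP)Kellr the means were 0.538 at 1105 and 0.537 at 1532 days (limma adjusted p = 0.9985). All of the oldest frogs were of the Krieg line, so line and age cannot be told apart between young and oldest frogs. The CpG 21113 bp from smad6, an inhibitor of BMP signalling (chromosome 3, position 117316791), rose from a median of 0.272 to 0.443 with a correlation of 0.57 (adjusted p = 2.90e-16). Young adults ran from 0.198 to 0.388 there and the oldest from 0.305 to 0.668, so the groups overlapped. Within the Krieg line the mean near smad6 was 0.472 at 2523 and 0.458 at 3987 days (limma adjusted p = 0.962). Between the ages of Xtr.Tg(otx2:GFP)Kellr the limma adjusted p there was 0.761. The other 3 were near LOC116408896, in LOC100489443 and 65119 bp from LOC105948124, with correlations of 0.55, 0.54 and 0.54. Their medians rose from 0.464 to 0.586, from 0.0850 to 0.347 and from 0.0981 to 0.209. Their correlations were 0.23, 0.28 and 0.39 within lane 1, and 0.58, 0.62 and 0.56 within lane 2. Within the Krieg line the limma adjusted p between 2523 and 3987 days was 0.734, 0.324 and 0.0829. Between the ages of Xtr.Tg(otx2:GFP)Kellr it was 0.0309 (higher at 1532 days), 0.813 and 0.957. Near LOC116408896 the 33 mid-aged frogs averaged above for mettl25 had a mean of 0.613, against 0.583 in the oldest. Among the 3 strains of 2878 days the limma adjusted p was 0.0145 near smad6, 0.000593 near LOC116408896 and 0.00882 in LOC100489443. It was 0.132 near LOC105948124 and 0.434 in cop1. Near LOC116408896 these strains had means of 0.464 (Xtr.Et(eef1a1:GFP)psvbiMead), 0.676 and 0.607, and young adults 0.464. Strain and tank cannot be told apart there. In LOC100489443 frogs of some tanks lay far apart. Tank B116 had 0.0902, 0.098, 0.109, 0.329, 0.388, 0.413 and 0.444, whereas tank A139 ran from 0.335 to 0.385. A base change at this CpG was not tested.

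Whole tadpoles differed from the webbing skin of young adults at many isolated CpGs. Isolated CpGs were higher in the 5 tadpoles at 289 of 838 (34.5%) and lower at 101 (12.1%), against 19.5% and 19.4% of all CpGs (limma on the log2 logit, adjusted p under 0.05). The tadpoles came from 2 tanks and the young adults from 3, and with tank as a random effect 24.0% of isolated CpGs were higher and 4.77% (40 CpGs) lower, against 12.3% and 6.35% of all CpGs. The median difference in fraction was 0.0130 at isolated CpGs and -0.00450 at the others. At levels under 0.5, 79 of 95 isolated CpGs were higher in tadpoles (83.2%; others 66.4%), and from 0.5 to 0.8 162 of 255 (63.5%; others 48.2%). From 0.9 to 0.95, 3 of 185 were higher (1.62%; others 3.88%) and 43 lower (23.2%; others 28.7%). The level is the median over adults, young adults included, so the change of these shares with level is partly set by how levels were formed. Tissue and stage cannot be told apart, because only tadpoles were taken whole.

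Both tadpole groups were far from alike. The mean over isolated CpGs was between 0.833 and 0.856 in the 3 tadpoles of 89 days, 0.781 and 0.782 in the 2 of 177 days, and between 0.771 and 0.791 in young adults. Compared on their own with young adults, a split added after the data were seen, the tadpoles of 89 days were higher at 353 isolated CpGs (42.1%) and lower at 132 (15.8%), against 23.3% and 26.3% of all CpGs. Those of 177 days were higher at 14 (1.67%) and lower at 11 (1.31%), close to the 1.12% and 1.28% of all CpGs. At an unadjusted limma p under 0.05, 143 isolated CpGs (17.1%) and 15.4% of all CpGs differed between these 2 tadpoles and young adults. Few calls in a group of 2 do not show that it was like adult skin. The younger tadpoles exceeded the older ones at 187 of 838 isolated CpGs (22.3%; all CpGs 11.7%) and were below them at 39 (4.65%; all CpGs 4.70%) by limma. Genotype, tank and age all differed between these groups, and their parts in the difference cannot be told apart.

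The CpG with the smallest adjusted p in tadpoles lay in igsf9b, an immunoglobulin superfamily gene (chromosome 7, position 67739837). The 3 younger tadpoles had 0.868, 0.891 and 0.931, both older ones 0.696 and 0.768, and young adults 0.484 to 0.659 with a median of 0.599. All 5 tadpoles were above all young adults (difference 1.87 on the log2 logit scale, SE 0.19, limma adjusted p = 8.44e-09). A CpG in LOC101731292 (chromosome 8, position 49415761) had 0.887, 0.855 and 0.892, then 0.795 and 0.799, above the 0.655 to 0.765 of young adults (limma adjusted p = 1.28e-08). The 2 tadpole groups also stood apart at several of the CpGs named for age, mostly with higher values in the younger. In LOC100489443 the order was the reverse, with 0.213, 0.217 and 0.368 in the younger tadpoles and 0.399 and 0.418 in the older. Examples with higher values in the younger follow. The CpG near LOC105948124, which rose in adults from a median of 0.0981, stood at 0.707, 0.760 and 0.787 in the younger tadpoles and at 0.111 and 0.118 in the older. The CpG near LOC116408896 stood at 0.891, 0.926 and 0.931 in the younger and 0.441 and 0.486 in the older. At mettl25 the younger tadpoles had 0.814, 0.814 and 0.835 and the older 0.576 and 0.598, inside or just under the young adult range.

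**Figure D4:**
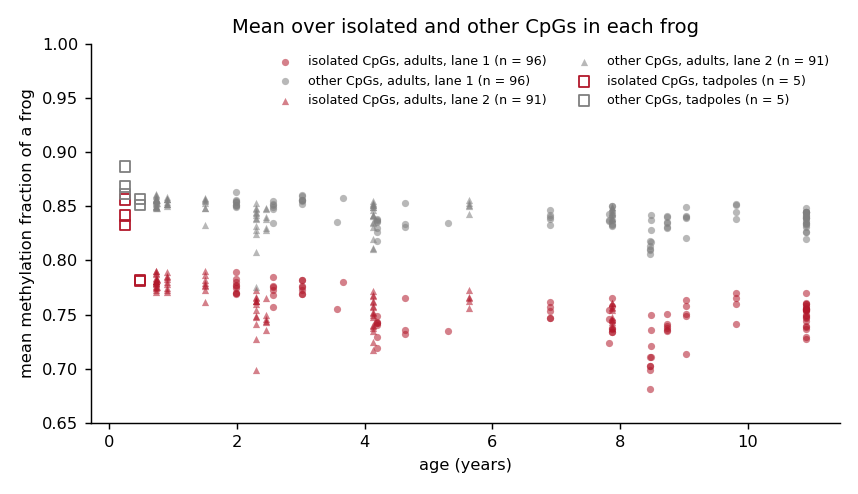
Mean methylation fraction of each frog over the 838 isolated (red) and 5337 other (grey) CpGs against age in years; circles are adults of lane 1, triangles adults of lane 2 and open squares tadpoles. The isolated mean of the 5 frogs of tank A308 (Xtr.Et(CAGGS-SB10;cryga:RFP)7M8FMead), at 8.46 years, lies lowest of all tanks at 0.699.

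The spread between tanks took a large part of the variance of isolated CpGs. Over 187 adults, a median of 45.0% of the variance of an isolated CpG lay between the 32 tanks, against 41.3% at other CpGs and 16.7% from the degrees of freedom alone if tanks did not differ. A straight line in age took 5.56% at isolated and 2.32% at other CpGs. After that line was removed 40.4% lay between tanks, against 38.7% at other CpGs. The median SD within tanks was 0.0360 at isolated and 0.0221 at other CpGs. Within levels the order turned. From 0.5 to 0.8 the share between tanks was 55.5% at isolated and 59.9% at other CpGs, and from 0.8 to 0.9 it was 42.2% and 47.2%, with within-tank SDs of 0.0324 and 0.0279. Of the 838 isolated CpGs, 104 had tank means more than 0.3 apart (12.4%; others 9.74%).

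**Figure D5:**
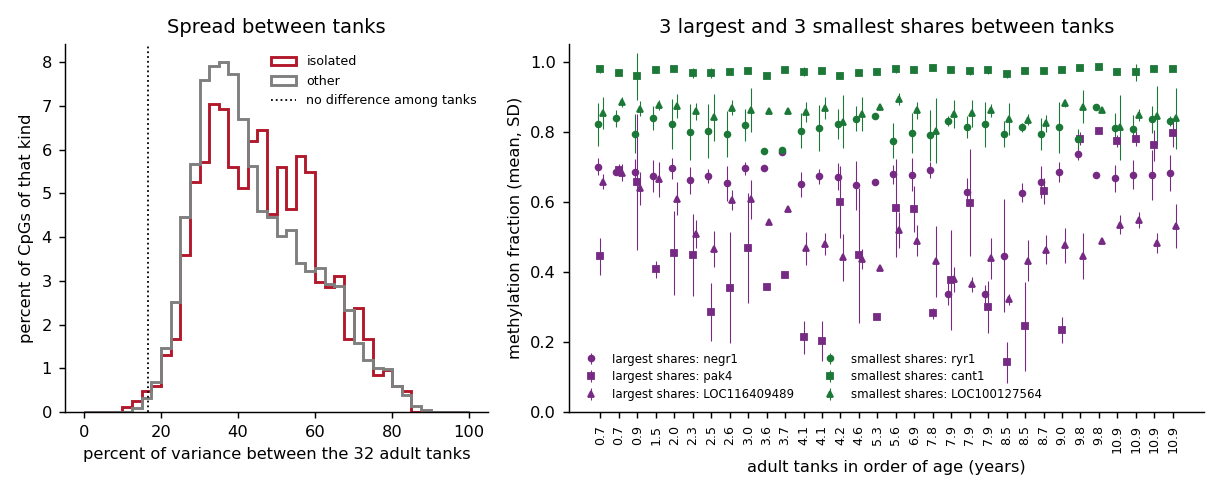
Left, percent of the variance of each CpG that lay between the 32 adult tanks, for isolated (red) and other (grey) CpGs, with the 16.7% that would lie there without any tank difference as a dotted line. Right, mean and SD of each tank, in order of age, for the isolated CpGs with the 3 largest (purple) and 3 smallest (green) shares between tanks after a straight line in age was removed; tanks of a single frog have no SD.

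The largest share left between tanks was at the CpG in negr1, which encodes a neuronal adhesion protein (chromosome 4, position 81930330), with 82.5%. Its tank means ran from 0.336 in tank A229 to 0.741 in the single Xtr.Tg(CMV:Aequorin,GFP)NXR frog of tank C310, with 0.737 as the highest among tanks of at least 2 frogs, while its SD within tanks was 0.0441. The CpG 483 bp from pak4, a p21-activated kinase gene (chromosome 8, position 80889975), had 78.7% and tank means from 0.141 in tank A308 to 0.803 in the single Xtr.Tg(cryga:GFP)Grngr frog of tank A214, with 0.797 as the highest among tanks of at least 2 frogs. Within some tanks the frogs lay far apart at these 2 CpGs. Near pak4, tank A225 had 0.259, 0.310, 0.333, 0.336, 0.358 and 0.662. In negr1, tank A308 had 0.306, 0.328, 0.357, 0.585 and 0.656. A base change at either CpG was not tested. A CpG 132375 bp from LOC116409489 on chromosome 3 at position 114143271 had 76.4%, with tank means from 0.322 to 0.682. The smallest shares were 11.2% in ryr1, the calcium release channel of skeletal muscle, 12.6% near cant1 and 13.6% near LOC100127564. The CpG near cant1 was almost fully methylated in every tank, with means from 0.958 to 0.984, tanks of a single frog included.

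At equal age, calls were more frequent among the 3 strains of 2878 days than among the 4 Krieg tanks of 3987 days. The 2 NXR 1111 tanks, of a single strain and age, differed at 12.9% of isolated and 22.1% of all CpGs. Their share over all CpGs was above that of the 3 strains. The 3 strains of 2878 days differed at 127 isolated CpGs (15.2%, all CpGs 11.8%), and the 4 tanks of the Krieg line at 3987 days at 3 (0.358%, all CpGs 0.551%) by limma. Without an adjustment, 19.2% of isolated and 18.8% of all CpGs differed among the 4 tanks at p under 0.05, and 33.5% and 26.7% among the 3 strains. The median SD of the means was 0.0173 for the 3 strains and 0.0169 for the 4 tanks. Means of few frogs vary without any difference, and the SDs within these tanks (0.0329 and 0.0350) would by themselves give means a median SD of 0.0134 and 0.0156. The SD of the strain means was a median of 1.39 times that value and the SD of the tank means 1.18 times, against 1.30 and 1.25 at other CpGs. The 3 strains each had a single tank, and Xtr.Et(CAGGS-SB10;cryga:RFP)Mead was on lane 1 whereas 5 of 6 Xtr.Et(eef1a1:GFP)psvbiMead frogs and all Xtr.Et(eef1a1:GFP)folMead frogs were on lane 2. Between the lane 2 frogs of the latter 2 strains 53 isolated CpGs differed (6.32%, all CpGs 3.84%).

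At the 2 CpGs with the smallest adjusted p, 1 of the 3 strains stood apart from both others. At a CpG 64585 bp from tmem38b, an ion channel gene of the endoplasmic reticulum (chromosome 1, position 120446504), Xtr.Et(eef1a1:GFP)folMead frogs ran from 0.460 to 0.536 (median 0.526). Xtr.Et(CAGGS-SB10;cryga:RFP)Mead frogs ran from 0.858 to 0.914 (median 0.890) and Xtr.Et(eef1a1:GFP)psvbiMead frogs from 0.830 to 0.930 (median 0.90), with no overlap with Xtr.Et(eef1a1:GFP)folMead (limma adjusted p = 1.29e-09). At the CpG in nlgn1, a postsynaptic adhesion gene (chromosome 5, position 110655760), Xtr.Et(CAGGS-SB10;cryga:RFP)Mead frogs ran from 0.401 to 0.491 (median 0.448), whereas Xtr.Et(eef1a1:GFP)psvbiMead had 0.799 to 0.870 (median 0.825) and Xtr.Et(eef1a1:GFP)folMead 0.745 to 0.880 (median 0.816; limma adjusted p = 5.05e-09). The same separate levels, looked for after the values were seen, occurred within other strains. Near tmem38b 6 of 17 NXR 1111 frogs lay between 0.473 and 0.554 and the other 11 between 0.814 and 0.904. In nlgn1, 13 of the 22 Krieg frogs of 3987 days lay between 0.372 and 0.485 and 9 between 0.768 and 0.853. Separate levels of this kind are what the filter was meant to remove, and a base change at these CpGs was not tested.

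Differences among the 4 Krieg tanks were small. In taf3, a TFIID subunit gene (chromosome 3, position 83725204), tank A135 had 0.919, 0.925, 0.935 and 0.941 and tank A137 0.954, 0.954, 0.962 and 0.964. Tank A133 ran from 0.929 to 0.957 (median 0.937) and tank A139 from 0.953 to 0.979 (median 0.963), with a limma adjusted p of 0.0421. In LOC100145450 (chromosome 7, position 93792721) tank A133 was lowest with a median of 0.942 and tank A139 highest with 0.970, and their frogs did not overlap (limma adjusted p = 0.0421). The third call, named because the count is small, was 9040 bp from LOC100498452 on chromosome 1 at position 64427652, where the frogs of tank A137 (0.889 to 0.921) stood above those of A133 (0.798 to 0.868), A135 (0.825 to 0.856) and A139 (0.826 to 0.883). On the fraction scale and after centring limma called 0 isolated CpGs among these tanks, with 155 and 176 at an unadjusted p under 0.05. Without tank A133 or without tank A139 the count was also 0, and it was 7 without A135 and 1 without A137.

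Between both NXR 1111 tanks, 108 isolated CpGs differed (12.9%), all of them higher in B417, against 22.1% of all CpGs higher there by limma. In cdc20b, a gene related to cell cycle regulator CDC20 (chromosome 1, position 191782449), B415 frogs ran from 0.856 to 0.918 (median 0.883) and B417 frogs from 0.909 to 0.945 (median 0.934), with some overlap (limma adjusted p = 0.0138). At the CpG 59376 bp from tmem170b (chromosome 6, position 90881576) the medians were 0.919 and 0.959 (limma adjusted p = 0.0151). The mean over isolated CpGs was 0.741 ± 0.0156 (SD, n = 9) in B415 and 0.760 ± 0.00661 (SD, n = 8) in B417. The median log2 logit over all CpGs was shifted by 0.30, and after centring on the other CpGs 0 isolated CpGs differed by limma, with 151 at an unadjusted p under 0.05.

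Within strains, the older group was lower in one line and mixed in another. In Xtr.Tg(otx2:GFP)Kellr, 433 isolated CpGs were lower at 1532 than at 1105 days (51.7%) and 32 higher (3.82%), against 54.7% and 3.00% of all CpGs by limma. The log2 logit over all CpGs was shifted by a median of -0.46, and after centring 41 isolated CpGs were lower (4.89%) and 85 higher (10.1%), against 3.47% and 9.43% of all CpGs. At the CpG 201537 bp from ralyl (chromosome 6, position 124352192), frogs of 1105 days ran from 0.919 to 0.927 (median 0.923) and those of 1532 days from 0.832 to 0.889 (median 0.861), with no overlap (limma adjusted p = 0.000169). At the CpG near LOC116412098 (chromosome 7, position 9594359) the medians were 0.646 and 0.512, again without overlap (limma adjusted p = 0.000169). Both ages came from 1 tank each, so tank and age cannot be told apart.

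In the Krieg line 11 isolated CpGs were higher at 3987 than at 2523 days (1.31%) and 15 lower (1.79%), against 2.23% and 2.07% of all CpGs by limma. With tank as a random effect 12 were called (1.43%, against 2.43% of all CpGs). All 5 frogs of 2523 days came from tank C410, so tank and age cannot be told apart. The CpG 31073 bp from LOC116410436 (chromosome 4, position 106991741) had 0.210, 0.318, 0.332, 0.350 and 0.364 at 2523 days and was listed at 0 in all 22 frogs of 3987 days. It was at 0.216 to 0.750 in young adults (median 0.628). A value of exactly 0 in all frogs of 4 tanks resembles the separate levels for which CpGs were filtered out, and a base change at this CpG in that line was not tested. The CpG near pak4 had 0.538, 0.551, 0.552, 0.560 and 0.696 at 2523 days and ran from 0.699 to 0.845 with a median of 0.776 at 3987 days (difference 1.35 on the log2 logit scale, SE 0.15, limma adjusted p = 1.39e-07, and 7.48e-06 with tank as a random effect). Within some other tanks frogs lay far apart at this CpG, and a base change there was not tested.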

How the data were processed

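Hindlimb webbing skin of 187 adults and 5 whole tadpoles was profiled by targeted bisulfite sequencing. Alignment by the authors used BiSulfite Bolt and genome v10.0. The authors deposited methylation fractions (0 to 1), a column per frog, for CpGs with at least 100 reads in each of 192 frogs. The submitters' processing notes also name fastp and SAMtools 1.11. The depth of a single value is not known, so values have no counting interval. Columns named by a number were recorded as an other unit, and hold fractions. Tank, lane and mean CpG depth came from the study's sample table. Frog 121 was kept at its listed 547 days although its 5 tank mates are listed at 2059 days. The 3 Xtr.Tg(cryga:GFP)Grngr frogs of 273 days have IDs ending in Tadpole and were counted among the 187 adults. Their tank and the tanks of both tadpole groups are listed with a question mark, and each was treated as a tank of its own.

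CpGs with a BIC difference above 90 between mixtures of 1 and 3 Gaussians (scikit-learn 1.9.0) and a smallest value below 0.006 were removed. Age was tested by Spearman correlation, and groups with limma (3.58.1, R 4.3.3) after a log2 logit transform with an offset of 0.001, both with Benjamini-Hochberg adjustment over all 6175 CpGs. Variance was split between and within tanks on the fraction scale. Scripts were tested on simulated data and ran in Python 3.11.15 with scipy 1.17.1. Deposited positions were 2 bases past the probe's offset of the CG for 3148 of 3179 pairs of a CpG and a listed probe, as if they mark the G with probe starts counted from 0. Genes came from RefSeq spans of assembly UCB_Xtro_10.0.

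CpGs named are the 5 most positive and 5 most negative with age, the 3 largest and 3 smallest in share between tanks, the 2 with the smallest adjusted p in each limma comparison, the 3 farthest from another CpG and those next to the distance limit. The members and lists were chosen with earlier results of these data known. Alternatives concerned the filter, the distance limit, the scale and offset, lanes, tank means and left-out frogs.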

Additional observations from a re-analysis of the deposited data

Results flagged for a closer look

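In 48 groups of 4 to 10 frogs, each a tank and either the mean over isolated CpGs or a CpG named for a comparison of that tank, a single frog stood far from its tank mates in 4. Chance alone flags about 1 group in 20. In tank A225 (2878 days, 6 frogs) a frog had a mean over isolated CpGs of 0.765, and the next was at 0.744. In tank A337 (3301 days, 5 frogs) a frog had a mean of 0.713, below the next at 0.749. In tank A227 a frog was at 0.830 at the CpG nearest to tmem38b, and the next of 6 was at 0.894. In tank C410 (2523 days) a frog was at 0.696 at the CpG near pak4, and the next of 5 was at 0.560.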

How the results depend on the processing

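The median level of isolated CpGs moved by less than the spread between frogs under all 4 alternatives tried. The count of falling isolated CpGs was 400, and 13 over tank means, 98 with tank as a random effect, 82 on lane 1, 256 on lane 2 and 228 after centring. The count of rising ones was 37, and 2 over tank means, 10 with tank as a random effect, 12 on lane 1, 27 on lane 2 and 68 after centring. It was 61 at a threshold of 0.05 (7.28%, against 8.57% of all CpGs). The 3 calls among the Krieg tanks became 6 without the mixture filter (0.572%, all CpGs 0.610%) and 0 on the fraction scale or after centring. They ran from 0 to 7 (0.835%, all CpGs 0.826%) when each tank was left out. The 108 calls between the NXR 1111 tanks became 69 on the fraction scale (8.23%, all CpGs 11.9%) and 0 after centring. The 127 calls among strains became 53 on lane 2. The 26 calls between 2523 and 3987 days became 95 without the filter (9.06%, all CpGs 6.77%) and 12 with tank as a random effect. They ran from 15 (1.79%, all CpGs 3.16%) to 20 (2.39%, all CpGs 3.81% or 3.84%) when each frog of 2523 days was left out. The 465 calls between 1105 and 1532 days (55.5%, all CpGs 57.7%) became 126 after centring (15.0%, all CpGs 12.9%). The 390 calls between tadpoles and young adults (46.5%, all CpGs 38.8%) became 241 with tank as a random effect (28.8%, all CpGs 18.7%). They became 25 with only the 177-day tadpoles (2.98%, all CpGs 2.40%). When each tadpole was left out they ran from 308 (36.8%, all CpGs 26.2%) to 434 (51.8%, all CpGs 44.6%). The median share of variance between tanks of 45.0% became 49.6% without the filter, 44.5% on the log2 logit scale, 46.1% without the adults of 3987 days and 42.8% in tanks of 5 or more frogs. The cause was not tested in any of these. Centring, the stretch of chromosome 1 and the split of the tadpoles were chosen after the data were seen. No paired analysis was possible because the frogs carry IDs of their own and share no replicate number between groups. P-values over frogs measure the spread between frogs of few tanks, and the unknown depth behind each value limits small differences at high levels.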
